A study of Mus musculus with 864 samples.

Results

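The cells described here are 80 mouse sensory neurons of lumbar dorsal root ganglia that carry transcripts of Mrgprd, a Mas-related receptor for beta-alanine that marks nonpeptidergic nociceptors. They were chosen by measured values in a table of read counts scaled to the size of each library (RPM). A single-cell well with 1000 or more genes above 0 was a member where Mrgprd was at 100 RPM or more, Th, the dopamine synthesis enzyme, and Sst below 200, Mrgpra3 and Nppb below 100, Tac1 below 5000 and Pvalb below 500. These 80 cells met all 7 limits among 864 wells in all, and they were 11.5% of the single-cell wells that passed the gene filter. They were compared with all the other passing wells. By this rule, wells at or above the Th, Sst, Mrgpra3, Nppb, Tac1 or Pvalb limit could lie only among the other wells.

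Ganglia were taken from C57/Bl6 mice of 6 to 8 weeks with no further allele or agent named, dissociated with enzymes, and the cells were picked by hand. Each library was made from the 5′ ends of transcripts of 1 well. The animals are not named, so the unit of every test was the preparation, that is a picking session of one sex. The Mrgprd cells came from 12 session C females and 16 session C males, both picked with cooling, and from 10 session A females, 28 session A males and 14 session B males, picked at room temperature, where each number counts cells. Values by preparation are given below in a fixed order, beginning with the males and the females of session A, then session B, which had males only, then the males and last the females of session C. P-values rest on the spread between these preparations. In the fits each gene's variance was drawn towards a trend over all genes, so p-values rest on the spread of other genes too. Since hand picking sets which cells enter a plate, the counts are not shares of the ganglion.

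Nonpeptidergic nociceptors are small-diameter neurons with unmyelinated fibres that end in the outer skin. In the mouse they depend in development on the transcription factor Runx1 and on the growth factor receptor Ret, and many bind the lectin IB4. They are known for the ATP-gated channel P2rx3 and for answering to itch-inducing and noxious mechanical stimuli.

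The sequences given here for Mrgprd and its closest companions are the stretches around the gene starts, because reads of this assay start at transcript 5′ ends. No sequence entered the choice of the cells. Each window holds 250 bases before and 50 after the start of a gene in RefSeq's annotation of GRCm38.p6, a later build than the one the reads were mapped to, read 5′ to 3′ on the gene's strand. Capitals mark the core letters TGTGGT or TGCGGT of the motif that Runx factors bind, on either strand. Of 12 genes looked up (Mrgprd, the 9 named below with the largest positive differences and the other high markers), 10 had a window, and P2rx3 and Ctxn3 are only named. The 4 printed are Mrgprd itself, the gene with the largest positive difference, and the 2 genes whose windows hold a core.
Mrgprd, chr7:145314585-145314884, plus strand: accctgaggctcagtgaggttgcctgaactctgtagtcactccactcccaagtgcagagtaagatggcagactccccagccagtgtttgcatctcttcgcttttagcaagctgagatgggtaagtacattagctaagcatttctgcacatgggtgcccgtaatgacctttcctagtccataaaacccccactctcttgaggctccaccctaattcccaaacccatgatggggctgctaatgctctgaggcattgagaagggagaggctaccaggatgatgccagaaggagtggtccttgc
Lpar3, chr3:146220711-146221010, plus strand: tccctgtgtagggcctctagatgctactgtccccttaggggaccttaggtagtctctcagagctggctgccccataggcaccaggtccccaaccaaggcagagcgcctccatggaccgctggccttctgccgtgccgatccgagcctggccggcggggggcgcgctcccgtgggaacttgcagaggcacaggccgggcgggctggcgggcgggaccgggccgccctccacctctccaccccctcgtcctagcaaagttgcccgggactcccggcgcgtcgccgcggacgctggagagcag
Gm765, chr6:98342705-98343004, minus strand: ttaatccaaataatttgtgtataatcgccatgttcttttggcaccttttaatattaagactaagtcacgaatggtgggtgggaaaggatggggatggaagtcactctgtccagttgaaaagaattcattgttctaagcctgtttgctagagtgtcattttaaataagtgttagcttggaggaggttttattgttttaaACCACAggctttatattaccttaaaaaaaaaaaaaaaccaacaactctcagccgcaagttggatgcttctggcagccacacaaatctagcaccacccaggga
Pde10a, chr17:8801495-8801794, plus strand: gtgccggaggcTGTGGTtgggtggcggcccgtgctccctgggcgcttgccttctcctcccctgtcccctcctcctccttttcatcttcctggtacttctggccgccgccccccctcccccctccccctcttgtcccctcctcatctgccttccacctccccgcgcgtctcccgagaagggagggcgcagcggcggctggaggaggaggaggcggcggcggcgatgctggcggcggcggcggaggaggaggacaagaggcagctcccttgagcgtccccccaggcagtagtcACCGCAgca

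Neither the Mrgprd nor the Lpar3 window holds a core. A core stood in 3 of the 11 windows found (Gm765 and both windows of Pde10a), beside 22.4% of all 32851 windows of this length. A match is a run of letters and no measured binding.

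Depth differed by session. The median Mrgprd cell held 16841, 23288, 311691, 2697375 and 3773068 reads by preparation, while the other wells held medians of 14719, 14865, 185529, 1466883 and 2170913. In session A a single read was worth about 59.4 RPM in males and 42.9 RPM in females, so at the median depth there the limit of 100 RPM stands for only a few reads. A total of 12 Mrgprd cells had 2 or fewer Mrgprd reads, all of session A, while the fewest in sessions B and C was 10. Thinned to 3000 reads a cell, the Mrgprd cells held medians of 1394, 1363, 1222, 1212 and 1328 genes, beside 1347, 1297, 1291, 1223 and 1194 in the other wells.

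Mrgprd itself, chosen by the rule and given without a test, averaged 329.3, 280.3, 210.9, 277.1 and 329.5 RPM in the Mrgprd cells and 15.8, 0, 6.79, 11.1 and 10.6 RPM in the other wells. Single Mrgprd cells had at least 104.6, a median of 252.04 and at most 789.4 RPM. The lowest values inside the limit were 104.6 and 104.9 RPM, from 1 and 3 reads in session A, and 106.2 RPM from 82 reads in session C, while the highest outside it were 98.5 RPM from 34 reads and 97.97 RPM from 1 read. Of 95 wells at or above 100 RPM, 15 were left out by other limits, 8 of them through Tac1 and 5 through Th. A further 73 wells had Mrgprd reads below the limit. In 32 empty or medium-only wells Mrgprd had 4 reads in all, in 1 well. The Mrgprd cells were 13.1, 22.2, 7.95, 8.70 and 16% of the passing wells by preparation, with a mean of 13.6 ± 5.84% (SD, n = 5), and 11.5% of all (95% Wilson interval 9.36 to 14.1%, counting error only). The shares of both female preparations lay above those of the 3 male ones, but the Wilson intervals overlapped (12.5 to 36.3% in session A females and 9.21 to 18.3% in session A males). With the limit at 200 RPM 45 cells were left.

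Of the 5 further genes named as markers of these cells, 4 were high and 1 was at 0 in nearly all cells. Lpar3, a receptor for lysophosphatidic acid, averaged 181.5, 157.1, 173.7, 155.3 and 247.1 RPM in the Mrgprd cells and 32.6, 4.43, 6.33, 19.6 and 22.8 RPM in the other wells. Every Mrgprd preparation lay above every preparation of the other wells. It had the largest positive difference among genes higher in all 5 preparations (log2 difference 3.26 ± 0.34 (SE), adjusted p = 9.44e-06). Adjusted p-values are from limma, a linear model over log2(mean RPM + 5) with the preparation as a block, adjusted by Benjamini-Hochberg over all 9982 genes tested.

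Prkca, the alpha form of protein kinase C, averaged 597.3, 473.8, 449.8, 409.04 and 787.7 RPM in the Mrgprd cells, against 124.2, 79.5, 58.7, 63.5 and 60.96 RPM in the other wells (log2 difference 2.75 ± 0.23 (SE), adjusted p = 1.12e-06). P2rx3 averaged 690.98, 541.4, 1003, 259.4 and 593.2 RPM in the Mrgprd cells and 131.8, 48.02, 134.9, 64.98 and 57.4 RPM in the other wells (log2 difference 2.75 ± 0.23 (SE), adjusted p = 1.33e-06). Plxnc1, a semaphorin receptor, averaged 527.5, 391.4, 247.7, 279.2 and 801 RPM in the Mrgprd cells and 120.6, 84.4, 86.4, 116.5 and 108.8 RPM in the other wells (log2 difference 1.95 ± 0.24 (SE), adjusted p = 3.72e-05). For each of these 3 genes the preparations of the 2 groups did not overlap. Here and below, a lack of overlap only describes a gene's values. The share of all tested genes without overlap was not counted, so it adds no support beyond the test. Lpar3, P2rx3 and Plxnc1 passed under all 21 alternative settings tried, and Prkca under 20. Prkca did not pass with the gated kinds of other wells weighted equally (2.78, adjusted p = 0.075).

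Agt, which encodes angiotensinogen, went against its place as a marker. It was listed above 0 in 1 of 80 Mrgprd cells, at 62.6 RPM in session C females, and in 2.77% of the other wells. The mean of the Mrgprd cells was 0, 0, 0, 0 and 5.22 RPM by preparation, and that of the other wells 1.47, 0, 0.665, 34.95 and 0.00489 RPM. At this level Agt was below the 5 RPM needed to enter the test.

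**Figure D1:**
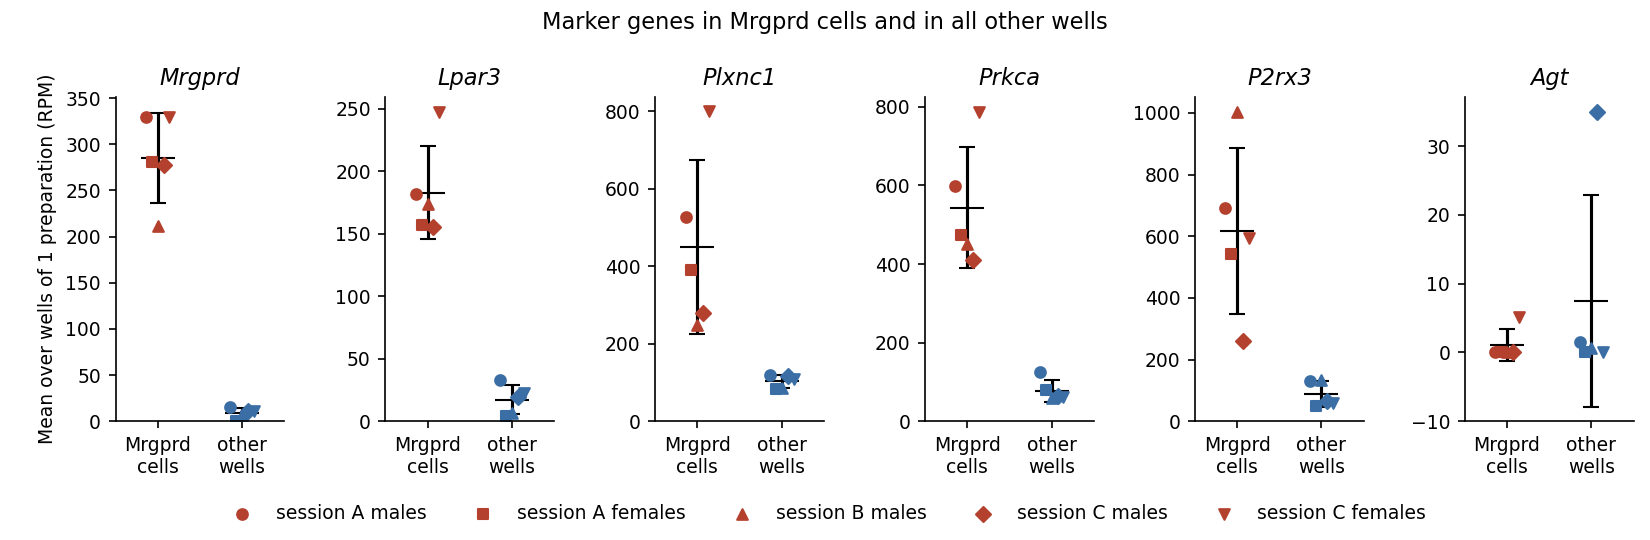
Mean RPM of the 6 marker genes in the Mrgprd cells (red, left) and all other wells (blue, right). Each symbol is 1 of 5 preparations, and the black bar is their mean with SD; Lpar3, Plxnc1, Prkca and P2rx3 separate the groups, Agt is at 5.22 RPM or less in all but the other wells of session C males, and Mrgprd chose the cells.

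The 4 high markers were found together in most Mrgprd cells. All 4 had reads in 54 of 80 Mrgprd cells (67.5%) and in 8.63% of the other wells, and none of the Mrgprd cells lacked all 4. With each well thinned to 3000 reads the shares were 12.5% of 80 Mrgprd cells and 1.14% of the other wells. Singly, Lpar3 had reads in 70% of the Mrgprd cells, against 15.3% of the other wells and 14.5% of the 62 wells at or above the Pvalb limit, which are large proprioceptive or mechanosensory neurons by that gene. After thinning these shares were 27.5%, 3.59% and 3.28%. Among nearer kinds of wells described below, Lpar3 had reads in 65.5% of the Tmem233-high wells (24.1% thinned) and 10.3% of the pruriceptor wells (3.45% thinned). Pruriceptor wells had Plxnc1 in 89.7%, Prkca in 89.7% and P2rx3 in 69%, against 95%, 97.5% and 96.25% of the Mrgprd cells. Thinned, these were 69%, 65.5% and 41.4%, against 53.75%, 75% and 66.25%. Median depth was 123382 reads in the Mrgprd cells, 140009 in the other wells and 49855 in the wells at or above the Pvalb limit. It was 86141 reads in the pruriceptor wells and 20790 in the Tmem233-high wells.

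Over all genes, 2.92% of the 9982 tested were higher in the Mrgprd cells and 7.34% were lower, 1024 in all, and the median gene differed by -0.20 on the log2 scale. Each mean stands on 10 to 28 Mrgprd cells of a preparation and on more other wells. When log2(RPM + 5) was averaged over cells instead, 1007 of 1640 called genes were higher, with a median of 0.11 in place of -0.20, so the share of higher genes among those called was 61.4% in place of 28.4%. Of the 1024 calls 812 were shared with that setting. The lists of genes named below by role are each given with their own median, to be read beside -0.20.

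Genes with the largest positive differences, among those higher in all 5 preparations, included Lpar3, Otoa, Prkcq, Gm765, Pde10a, Ctxn3, Trpc6, Tmem233 and Prkca. Otoa, known as an inner-ear attachment protein, averaged 80.5, 139.6, 124.8, 115.5 and 134.3 RPM in the Mrgprd cells and 11.6, 8.38, 10.5, 9.15 and 3.85 RPM in the other wells (log2 difference 3.19 ± 0.36 (SE), adjusted p = 2.2e-05). Prkcq, the theta form of protein kinase C, averaged 130.97, 148.7, 119.001, 116.5 and 153.2 RPM in the Mrgprd cells and 11.1, 0, 12.3, 20.3 and 27.05 RPM in the other wells (log2 difference 3.09 ± 0.40 (SE), adjusted p = 6.65e-05). Neither gene's groups overlapped. Tmem233, a membrane protein, averaged 2281, 3243, 981, 500.6 and 919.6 RPM in the Mrgprd cells and 505.1, 440.1, 148.9, 76.1 and 73.7 RPM in the other wells (log2 difference 2.78 ± 0.19 (SE), adjusted p = 1.2e-07), and its session C male value lay below the other wells of session A males. With the gated kinds of other wells weighted equally Tmem233 did not pass (2.58, adjusted p = 0.0689). Ctxn3, a cortexin, averaged 675.4, 630.6, 778.97, 1322 and 1079 RPM in the Mrgprd cells and 129.4, 64.8, 93.6, 197.3 and 99.96 RPM in the other wells (log2 difference 2.92 ± 0.19 (SE), adjusted p = 1.2e-07). Gm765 averaged 267.96, 270.9, 1499, 391.9 and 462.4 RPM in the Mrgprd cells and 42.2, 76.9, 148.2, 46.6 and 15.6 RPM in the other wells (log2 difference 3.01 ± 0.31 (SE), adjusted p = 6.88e-06). The Gm765 value of session B males stood far above its other 4. Pde10a, a cyclic nucleotide phosphodiesterase, averaged 73.1, 164.6, 51.3, 43.3 and 68.7 RPM in the Mrgprd cells and 17.1, 1.92, 3.30, 4.09 and 2.44 RPM in the other wells (log2 difference 2.98 ± 0.45 (SE), adjusted p = 0.0003), and it no longer passed with cells thinned to 3000 reads (adjusted p = 0.0911) or with the Mrgprd limit at 200 RPM (1.49, adjusted p = 0.0716), while its adjusted p ran from 3.76e-07 to 0.0911 over the alternatives.

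The 10 with the largest negative differences were Pcp4, Fxyd6, Tagln3, Lgals1, Fbxo2, Rprm, Atp11a, Ceacam10, Hopx and Hpca. The rule left wells high in Th, Sst, Mrgpra3, Nppb, Tac1 or Pvalb in the other wells alone. The part of this choice in the lower genes, here and in the lists below, was not tested. Pcp4, a calmodulin-binding peptide, averaged 63.5, 275.2, 77.9, 1.57 and 8.69 RPM in the Mrgprd cells, against 1304, 3204, 1657, 1149.7 and 1082 RPM in the other wells (log2 difference -5.17 ± 0.46 (SE), adjusted p = 2.24e-05). Fxyd6, a regulator of the sodium pump, averaged 6.11, 10.5, 1.56, 0.405 and 0.383 RPM in the Mrgprd cells and 147.2, 172.6, 191.6, 410.2 and 412.99 RPM in the other wells (log2 difference -4.95 ± 0.44 (SE), adjusted p = 2.01e-06). Lgals1, or galectin 1, averaged 80.2, 245.3, 61.1, 5.98 and 14.7 RPM in the Mrgprd cells and 932, 1529, 1317, 875 and 902 RPM in the other wells (log2 difference -4.45 ± 0.41 (SE), adjusted p = 1.14e-05). None of these 3 overlapped between groups. With edgeR and TMM on recovered reads Pcp4 (adjusted p = 0.0636), Tagln3 (0.0528), Rprm (0.137) and Hopx (0.118) did not pass. Pcp4 also did not pass in limma with the gated kinds of other wells weighted equally (adjusted p = 0.0522). Ceacam10 had reads in 4 of 80 Mrgprd cells and 34.9% of the other wells. Fbxo2, part of a ubiquitin ligase for glycoproteins, had reads in 18 of 80 Mrgprd cells and 68.6% of the other wells. Summed markers of satellite glia were also lower in the Mrgprd cells, at 417.4 to 1582 RPM by preparation beside 1336 to 4754 RPM in the other wells, and their part in the negative differences was not tested.

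**Figure D2:**
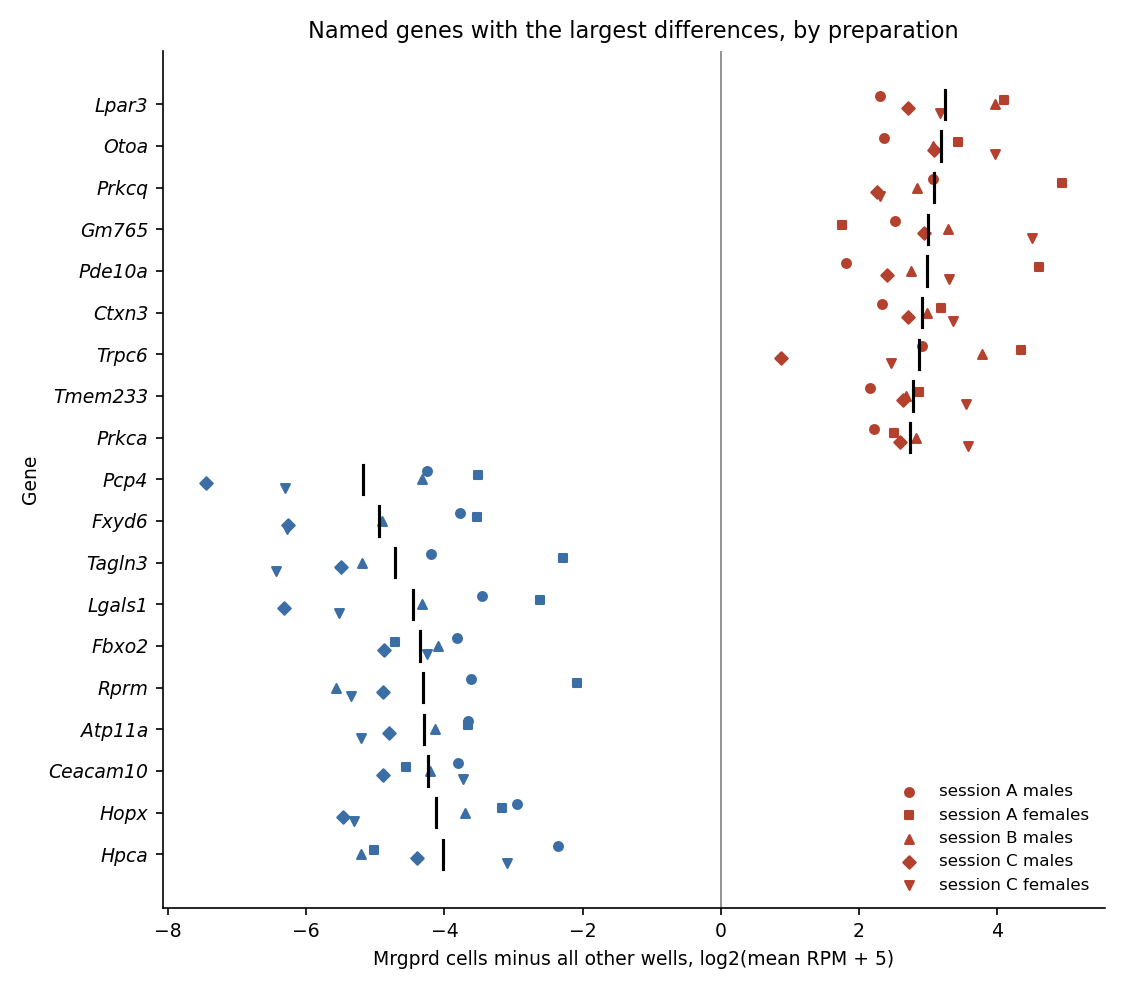
Difference in log2(mean RPM + 5) between Mrgprd cells and all other wells for 19 named genes; each symbol is 1 of 5 preparations and the black line the fitted difference. Every symbol lies on the side of its gene's fitted difference, with Lpar3 at 3.26 highest and Pcp4 at -5.17 lowest.

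Among receptors, 2 of 4 tested Mas-related receptors were higher in the Mrgprd cells and none lower (list median 0.51). Mrgpra2a averaged 95.1, 157.6, 20.6, 25.5 and 111.01 RPM in the Mrgprd cells and 13.6, 0, 5.75, 11.7 and 4.09 RPM in the other wells (log2 difference 2.65 ± 0.54 (SE), adjusted p = 0.00368), and Mrgprb5 averaged 14.3 ± 10.00 RPM beside 1.15 ± 1.10 RPM (SD, n = 5 each; log2 difference 1.5 ± 0.47 (SE), adjusted p = 0.0497). Mrgprb5 kept its call in 7 alternatives and did not pass in 12, and the number of higher receptors in the list ran from 0 to 2. It reached the 5 RPM filter only through its level in the Mrgprd cells. With no filter on low values 14 of these receptors were tested and 0 were higher. Their median was then -0.01, beside -0.07 over all genes. Mas-related receptors of the mouse include near-identical copies, so reads may have been placed on either of several genes. Mrgprx1 did not pass (difference -0.48, adjusted p = 0.639).

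Of 13 purinergic genes tested 2 were higher, P2rx3 and Nt5e, and 1 was lower, P2ry1 (list median -0.25). Nt5e, which makes adenosine outside the cell, averaged 28.8, 116.2, 30.9, 32.6 and 103.9 RPM in the Mrgprd cells and 7.21, 13.6, 4.76, 15.4 and 25.2 RPM in the other wells (log2 difference 1.76 ± 0.40 (SE), adjusted p = 0.00807). P2ry1, a receptor for ADP, averaged 17.7, 32.1, 5.74, 8.38 and 9.43 RPM in the Mrgprd cells and 137.6, 83.4, 168.3, 227.3 and 440.2 RPM in the other wells (log2 difference -3.40 ± 0.44 (SE), adjusted p = 6.15e-05). The P2ry1 groups did not overlap. Acpp, the acid phosphatase used to mark nonpeptidergic neurons, did not pass at 407.01 ± 137.2 RPM beside 264.5 ± 42.3 RPM in the other wells (adjusted p = 0.116).

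Lipid mediator receptors split, with 3 of 9 higher and 2 lower (list median 0.48). Beside Lpar3, Lpar5 averaged 46.2 ± 40.6 RPM in the Mrgprd cells and 5.02 ± 4.73 RPM in the other wells (log2 difference 2.09 ± 0.47 (SE), adjusted p = 0.00797). Ptgdr, a prostaglandin D2 receptor, averaged 112.8, 125.7, 221.6, 54.3 and 112.04 RPM in the Mrgprd cells and 29.1, 14.1, 35.96, 35.3 and 31.03 RPM in the other wells (log2 difference 1.86 ± 0.35 (SE), adjusted p = 0.00185). Its groups did not overlap. Lpar1 (difference -2.16 ± 0.54 SE) and S1pr3 (-2.25 ± 0.56 SE) were lower, each in 4 of 5 preparations.

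Of 5 itch and cytokine receptors that could be tested, Lifr, a receptor subunit for leukaemia inhibitory factor, was higher and Osmr, the oncostatin M receptor, lower (list median 1.02). Lifr averaged 436.1, 655.2, 346.3, 347.7 and 613.7 RPM in the Mrgprd cells and 196.4, 233.4, 240.6, 247.02 and 211.5 RPM in the other wells (log2 difference 1.02 ± 0.20 (SE), adjusted p = 0.00297), with no overlap. Osmr averaged 4.64 ± 4.65 RPM in the Mrgprd cells and 20.8 ± 15.4 RPM in the other wells (log2 difference -1.39 ± 0.43 (SE), adjusted p = 0.0475), but with log values averaged over cells its difference was 0.0016. Osmr kept its call in 4 alternatives and did not pass in 15 others of the same direction.

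Of 12 growth factor receptors 5 were lower and 1 was higher (list median -0.92). Ngfr, the low-affinity neurotrophin receptor, averaged 12.4, 13.99, 3.18, 3.28 and 0.0626 RPM in the Mrgprd cells and 195.7, 135.1, 125.2, 166.1 and 161.4 RPM in the other wells (log2 difference -3.96 ± 0.38 (SE), adjusted p = 4.5e-06). Ntrk3 (-2.09 ± 0.43 SE), Gfra3 (-2.10 ± 0.43 SE), Fgfr1 (-1.91 ± 0.42 SE) and Ntrk2 (-1.79 ± 0.55 SE) were the other lower members, and Igf1r (1.10 ± 0.30 SE) the higher one. Over the alternatives Ntrk2 kept its call in 10 and lost it in 11, and Igf1r kept it in 11 and lost it in 10. Ret, the receptor these neurons are known for, averaged 479.2, 390.2, 519.2, 508.3 and 1120.2 RPM in the Mrgprd cells and 345.6, 328.7, 328.3, 501.7 and 428.5 RPM in the other wells, which did not pass (log2 difference 0.55 ± 0.19 (SE), adjusted p = 0.0808). Its co-receptor Gfra2 did not pass either (difference 0.49, adjusted p = 0.0943). Both were above the other wells of the same preparation in 5 of 5.

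Among inhibitory and peptide receptors 1 of 12 was higher and 4 were lower (list median -0.92). The higher one was Agtr1a, the angiotensin II receptor, at 65.1, 8.22, 80.9, 36.3 and 42.2 RPM in the Mrgprd cells and 5.00, 0, 14.02, 5.85 and 8.35 RPM in the other wells (log2 difference 2.03 ± 0.42 (SE), adjusted p = 0.0044). Htr1d, a serotonin receptor, averaged 1.52 ± 2.28 RPM in the Mrgprd cells and 45.2 ± 13.2 RPM in the other wells (log2 difference -2.97 ± 0.44 (SE), adjusted p = 0.000252). Of 17 glutamate and GABA receptor genes, only Grik1 was higher and 6 were lower (list median -0.73). Grik1, a kainate receptor subunit, averaged 828, 825, 857, 543.4 and 700.7 RPM in the Mrgprd cells and 222.4, 93.4, 167.5, 158.1 and 144.1 RPM in the other wells (log2 difference 2.25 ± 0.20 (SE), adjusted p = 2.07e-06). It had reads in 79 of 80 Mrgprd cells, and its groups were far apart. The lower members included the GABA-A alpha subunits Gabra2 and Gabra3.

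Of 11 TRP channels 3 were higher and none lower (list median 0.76). The higher ones included Trpc6, a cation channel opened by diacylglycerol, and Trpa1, a channel for irritants. Trpc6 averaged 67.1, 97.4, 93.5, 17.8 and 61.1 RPM in the Mrgprd cells and 4.51, 0, 2.16, 7.49 and 6.98 RPM in the other wells (log2 difference 2.88 ± 0.50 (SE), adjusted p = 0.000952). Trpa1 averaged 51.1, 84.7, 104.9, 62.3 and 50.1 RPM in the Mrgprd cells and 24.4, 4.02, 19.04, 22.4 and 15.4 RPM in the other wells (log2 difference 1.83 ± 0.40 (SE), adjusted p = 0.00642). For both channels the groups did not overlap. Trpv1, the capsaicin receptor, had reads in 8 of 80 Mrgprd cells and averaged 0, 0, 2.18, 20.8 and 4.79 RPM there, beside 20.6, 1.65, 30.9, 13.8 and 9.79 RPM in the other wells (difference -1.04, adjusted p = 0.21).

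Voltage-gated sodium channels divided by kind, with 2 of 13 higher and 7 lower (list median -1.46). The 2 higher ones encode the tetrodotoxin-resistant channels Nav1.8 and Nav1.9. Scn11a averaged 1023, 999, 773.7, 675.6 and 894 RPM in the Mrgprd cells and 250.003, 143.8, 211.1, 261.2 and 174.3 RPM in the other wells (log2 difference 2.06 ± 0.19 (SE), adjusted p = 3.33e-06). Scn10a averaged 1654, 1269, 802, 586.5 and 951 RPM in the Mrgprd cells and 457.7, 135.5, 230.3, 308.6 and 262.9 RPM in the other wells (log2 difference 1.91 ± 0.23 (SE), adjusted p = 3.72e-05). Neither gene's groups overlapped. The lower ones included the alpha subunits Scn1a (-2.80 ± 0.42 SE), Scn8a (-2.53 ± 0.41 SE) and Scn7a (-1.32 ± 0.22 SE) and the beta subunits Scn2b, Scn3b and Scn4b. Scn9a, which encodes Nav1.7, averaged 410.7, 539.3, 324.04, 232.1 and 431.2 RPM in the Mrgprd cells and 393.3, 494.8, 303.5, 438.98 and 379.4 RPM in the other wells (log2 difference -0.09 ± 0.19 SE, adjusted p = 0.831).

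Of 35 potassium channel genes 4 were higher and 9 lower (list median 0.14). Kcnip4, Kcnab1, Kcnt1 and Kcnk18 were the higher ones, with Kcnip4 at 293.8, 461.03, 382.8, 263.1 and 279.98 RPM in the Mrgprd cells and 132.99, 115.3, 104.7, 142.6 and 164.5 RPM in the other wells (log2 difference 1.30 ± 0.23 (SE), adjusted p = 0.00112). Kcna1, a delayed rectifier of large axons, averaged 44.8, 31.4, 18.05, 23.3 and 43.2 RPM in the Mrgprd cells and 201.8, 433.6, 259.9, 162.3 and 147.4 RPM in the other wells (log2 difference -2.68 ± 0.32 (SE), adjusted p = 3.21e-05). Kcnk18 kept its call in only 4 of the 21 alternatives and Kcnt1 in 17. With log values averaged over cells 14 potassium channel genes were higher and 9 lower. Of 9 calcium channel genes 3 were lower and none higher (list median -0.05), among them Cacna1h (-2.89 ± 0.51 SE), a T-type channel. Of 12 acid-sensing, mechanosensory, HCN and chloride channel genes 3 were lower and none higher (list median -0.39). The lower ones were Accn3 and Accn2, the acid-sensing channels also called Asic3 and Asic1, and Ano6. Accn3 averaged 3.09, 5.79, 4.57, 0.0578 and 0 RPM in the Mrgprd cells and 135.6, 251.1, 228.6, 33.7 and 49.5 RPM in the other wells (log2 difference -3.94 ± 0.41 (SE), adjusted p = 9.44e-06). Fam38b, the mechanosensitive channel Piezo2, averaged 361.6 ± 102.8 RPM in the Mrgprd cells and 476.4 ± 87.4 RPM in the other wells and did not pass (adjusted p = 0.145).

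The list with the most higher genes was Gq, phospholipase and protein kinase C signalling. It holds the chain that runs from receptors such as Mrgprd to diacylglycerol, and also other G proteins, diacylglycerol kinases and Rgs regulators. Of 31 genes tested 13 were higher and 2 lower (list median 0.87). Against the pruriceptor wells described below, 3 of 28 were higher and none lower, with a median of 0.46 beside 0.26 over all genes. Gna14, a G protein alpha subunit of the Gq class, averaged 699.97, 545.2, 199.02, 172.1 and 275.4 RPM in the Mrgprd cells and 139.9, 74.1, 44.1, 38.7 and 18.5 RPM in the other wells (log2 difference 2.55 ± 0.26 (SE), adjusted p = 8.69e-06). Plcb3, a phospholipase C beta, averaged 317.2, 196.9, 183.3, 215.998 and 169.1 RPM in the Mrgprd cells and 71.99, 19.6, 28.7, 32.02 and 73.2 RPM in the other wells (log2 difference 2.26 ± 0.29 (SE), adjusted p = 6.65e-05). Gnaq averaged 1928, 1935, 502.8, 634.6 and 1013 RPM in the Mrgprd cells and 419.6, 469.3, 351.97, 315.3 and 303.3 RPM in the other wells (log2 difference 1.49 ± 0.21 (SE), adjusted p = 0.000159). All 3 were separate between groups. Besides Prkcq and Prkca, the kinase Prkcd (1.88 ± 0.31 SE) was higher, while Prkcb (-2.14 ± 0.49 SE) was lower. Diacylglycerol kinases Dgkg (2.09 ± 0.36 SE), Dgkh (1.98 ± 0.23 SE) and Dgkz (1.37 ± 0.17 SE) were higher, as were Rgs3, Rgs7 and Rgs4, regulators that shorten G protein signals, and Gnao1. Gnai1 (-2.34 ± 0.48 SE) was lower. The number of higher members ran from 10 to 19 over the 21 alternative settings, and the list median lay above that of all genes in each.

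No transcription factor of 26 tested was higher and 7 were lower (list median -0.20). Runx1 averaged 144.8, 217.7, 47.3, 304.6 and 362.3 RPM in the Mrgprd cells and 89.5, 69.2, 77.8, 199.7 and 198.9 RPM in the other wells and did not pass (log2 difference 0.61 ± 0.28 (SE), adjusted p = 0.199). Zfp521, a zinc finger protein, averaged 0, 0, 0.16, 26.4 and 0.1 RPM in the Mrgprd cells and 68.3, 74.03, 88.03, 103.8 and 234.9 RPM in the other wells (log2 difference -3.88 ± 0.48 (SE), adjusted p = 4.78e-05). Cbfb, the partner subunit of Runx factors, was lower at 37.7, 32.1, 19.1, 16.9 and 90.6 RPM in the Mrgprd cells, against 168.2, 220.02, 167.6, 129.1 and 152.8 RPM in the other wells (log2 difference -2.16 ± 0.33 (SE), adjusted p = 0.000306). The Cbfb groups did not overlap. Pou4f2 (-2.42 ± 0.46 SE), Tbx3, Bhlha9, Etv1 and Pou4f1 (-0.74 ± 0.20 SE) were also lower, of which Pou4f1 kept its call in 9 alternatives and lost it in 12. With log values averaged over cells 6 factors were higher and 6 lower.

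Guidance and adhesion genes were higher for 6 of 40 and lower for 12 (list median -0.95). Cd55, a complement regulator at the cell surface, averaged 806, 932, 874, 526.1 and 814 RPM in the Mrgprd cells and 165.1, 105.5, 167.6, 97.1 and 88.5 RPM in the other wells (log2 difference 2.64 ± 0.20 (SE), adjusted p = 3.64e-07). Cd24a, a glycosylated surface protein, averaged 6875, 6801, 3505, 3304 and 6023 RPM in the Mrgprd cells and 2066, 1411, 706.9, 1209.7 and 1144 RPM in the other wells (log2 difference 2.03 ± 0.14 (SE), adjusted p = 1.2e-07). It had reads in every Mrgprd cell, and both genes were separate between groups. Cadm1, Cdh1, Plxnd1 and Plxnc1 were the other higher members. Thy1, a surface glycoprotein of many projection neurons, averaged 24.6, 66.98, 12.6, 0.732 and 0.454 RPM in the Mrgprd cells and 336.4, 335.9, 219.2, 231.6 and 121.2 RPM in the other wells (log2 difference -3.87 ± 0.39 (SE), adjusted p = 6.1e-06). Nrp1 (-3.32 ± 0.48 SE) and Plxna4 (-3.26 ± 0.45 SE), both parts of receptors for class 3 semaphorins, were lower too.

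Glycan synthesis genes were even, with 3 of 20 higher and 3 lower (list median 0.09). A3galt2, an alpha-1,3-galactosyltransferase, averaged 106.6, 103.9, 358.6, 62.5 and 172.7 RPM in the Mrgprd cells and 20.01, 30.4, 25.8, 8.08 and 7.56 RPM in the other wells (log2 difference 2.71 ± 0.37 (SE), adjusted p = 0.000103). St8sia3 and Gcnt2 were the other higher members, and B3galnt1, A4galt and St3gal5 the lower ones. IB4 binds terminal alpha-galactose, the sugar that the family of A3galt2 adds.

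**Figure D3:**
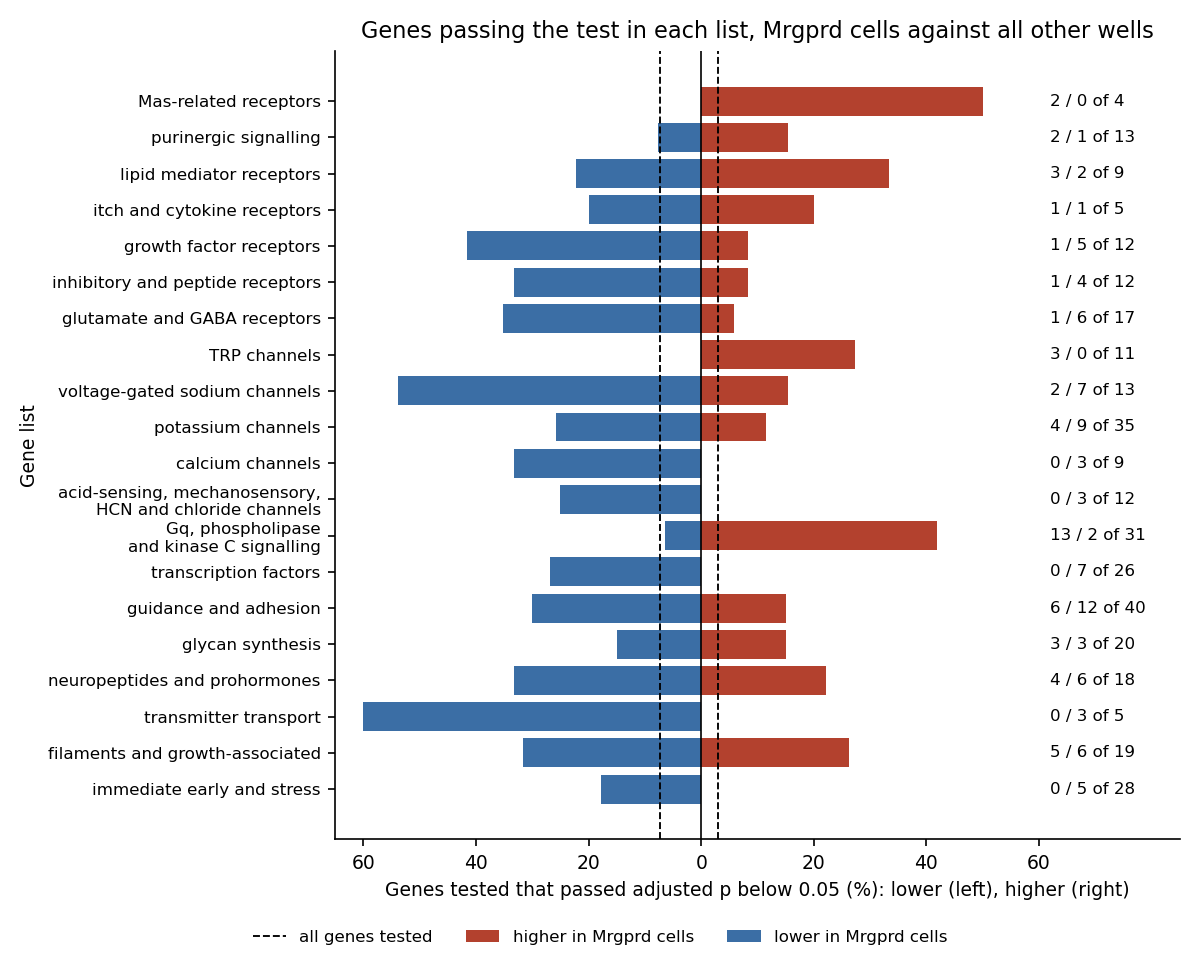
Share of each list's tested genes that passed the test, higher in the Mrgprd cells to the right (red) and lower to the left (blue), with the counts written as higher / lower of tested. Dashed lines mark 2.92% higher and 7.34% lower over all genes tested; the Gq, phospholipase and kinase C list has 13 higher of 31.

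The name nonpeptidergic did not mean an absence of peptide transcripts. Calca, which encodes alpha-CGRP, averaged 616.3, 819.6, 454.1, 1289.9 and 841 RPM in the Mrgprd cells and 1794, 887, 1083, 938 and 603.5 RPM in the other wells (log2 difference -0.39 ± 0.25 (SE), adjusted p = 0.373), and it had reads in 78 of 80 Mrgprd cells. Calca reads in the empty or medium-only wells were not counted. Tac1, the substance P precursor, entered the rule only as an upper limit, and single Mrgprd cells ranged from 0 through a median of 708.1 to 4722 RPM. Of 18 neuropeptide and prohormone genes tested 4 were higher and 6 lower (list median -0.63). Nmb, the neuromedin B precursor, averaged 575.2, 663.9, 789.2, 1135 and 838 RPM in the Mrgprd cells and 197.6, 124.6, 157.4, 261.2 and 169.1 RPM in the other wells (log2 difference 2.11 ± 0.18 (SE), adjusted p = 1.33e-06). Calcb, for beta-CGRP, averaged 462.9, 653.6, 437.5, 1267 and 600.5 RPM in the Mrgprd cells and 308.1, 307.7, 209.3, 339.8 and 232.5 RPM in the other wells (log2 difference 1.19 ± 0.19 (SE), adjusted p = 0.000483). Scg3 and Pcsk2, of the secretory granule, were the other higher genes. Adcyap1, the PACAP precursor, was at 0 in every Mrgprd cell but averaged 47.4, 8.50, 82.3, 35.5 and 17.8 RPM in the other wells (adjusted p = 0.000708). Gal, Nts, Scg2, Chgb and Pam were lower as well.

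In transmitter transport 3 of 5 genes were lower and none higher (list median -1.13). Slc17a6, the vesicular glutamate transporter VGLUT2, averaged 205.4 ± 85.2 RPM in the Mrgprd cells and 190.7 ± 58.1 RPM in the other wells (SD, n = 5 each; adjusted p = 0.953), while Slc17a8 (-2.79 ± 0.46 SE) and Slc17a7 (-2.28 ± 0.49 SE), which encode VGLUT3 and VGLUT1, were lower, as was Glul, glutamine synthetase of glia. Filament and growth-associated genes were higher for 5 of 19 and lower for 6 (list median -0.04). Nefh, the heavy neurofilament chain of myelinated axons, averaged 199.8, 229.5, 140.4, 103.3 and 236.1 RPM in the Mrgprd cells and 935, 1008, 1359, 504.1 and 433.8 RPM in the other wells (log2 difference -2.13 ± 0.25 (SE), adjusted p = 2.35e-05), without overlap. Prph, peripherin of thin fibres, was higher at 2398 ± 1004 RPM in the Mrgprd cells beside 1677 ± 553.7 RPM in the other wells (log2 difference 0.48 ± 0.12 (SE), adjusted p = 0.0125). Nefm was lower (-0.87 ± 0.21 SE, adjusted p = 0.0127), but with log values averaged over cells its difference was 0.64 (adjusted p = 0.203). Of 28 immediate early and stress genes 5 were lower and none higher (list median -1.14), led by Hspb1, a small heat shock protein, at 31.8 ± 26.5 RPM in the Mrgprd cells and 195.5 ± 47.2 RPM in the other wells (log2 difference -2.82 ± 0.38 (SE), adjusted p = 8.39e-05).

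The Mrgprd cells varied among themselves. Across single cells the lowest, median and highest values were 0, 123.8 and 811 RPM for Lpar3, 0, 509.1 and 3409 RPM for P2rx3 and 0, 818 and 2032 RPM for Scn11a. Reads of genes used as glial markers were found in nearly all of them. Summed satellite glia markers were at 0 in 1 of 80 cells, with a median of 446.9 RPM, and reached 1000 RPM or more in 12 cells and 9704 RPM in 1. Summed Schwann cell markers were at 0 in 3 cells, with a median of 352.97 RPM, and reached 1000 RPM or more in 5. Endothelial markers were at 0 in 77 cells, immune markers in 65 and fibroblast markers in 61. Markers of pruriceptors summed to a median of 0 RPM and at most 575.1 RPM. These 10 genes include Mrgpra3, Nppb and Sst, which the rule capped, so the low sum was partly set by the choice of cells.

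Pruriceptor wells, 29 cells with Mrgpra3 at 100 RPM or more, Nppb at 100 or more or Sst at 200 or more and below the Th, Tac1 and Pvalb limits, are a related kind of itch-sensing neuron. They reached 3 cells in 4 preparations, all but session C females. Against them 51 genes were higher in the Mrgprd cells (0.563% of 9064 tested) and 41 lower (0.452%). The 7 genes of the rule were left out. Of the sodium channel list none of 12 tested passed there (list median 0.23), and of the TRP channels none of 9 (list median 1.71), beside a median of 0.26 over all genes. With so few genes called in all, this does not show that these channels are alike in the 2 kinds of cells. Grik1 averaged 49.8, 0, 33.4 and 79.3 RPM in the pruriceptor wells of the 4 preparations, under the Mrgprd cells' lowest value of 543.4 RPM (log2 difference 4.62 ± 0.54 (SE), adjusted p = 3.69e-07). Gfra2, the neurturin co-receptor, averaged 335.9 ± 98.2 RPM in the Mrgprd cells and 16.6 ± 14.4 RPM in the pruriceptor wells (log2 difference 4.28 ± 0.68 (SE), adjusted p = 2.21e-05; SD, n = 4 each). Gm765 (5.92 ± 0.77 SE), Prkcq (4.47 ± 0.88 SE), Lpar3 (4.46 ± 0.88 SE) and Cdh1 (4.14 ± 0.88 SE), which encodes E-cadherin, complete the 6 largest positive differences. With cells thinned to 3000 reads Prkcq (adjusted p = 0.411), Lpar3 (0.497), Gfra2 (0.0786) and Cdh1 (0.141) did not pass, nor did Gm765 with edgeR and TMM (0.121), Grik1 with a pseudocount of 1 RPM (0.208) or Cdh1 without session B males (0.139), and with no filter on low values none of the 6 passed.

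The 6 largest negative ones were Crip1, Hpcal1, Ptprn, Nts, Resp18 and Fbxo2. With no filter on low values none of these 6 passed in limma (adjusted p from 0.094 for Hpcal1 to 0.422 for Fbxo2). Fbxo2 also did not pass with thinned cells (0.287) or without session A males (0.0701), and Nts did not with thinned cells (0.386). Hpcal1, a calcium sensor, averaged 9.06, 28.5, 5.20, 1.66 and 11.4 RPM in the Mrgprd cells of the 5 preparations and 461.8, 875, 329.8 and 601.3 RPM in the pruriceptor wells of 4 (log2 difference -5.33 ± 0.63 (SE), adjusted p = 1.48e-08). Nts, the neurotensin precursor, averaged 5.25 ± 10.3 RPM in the Mrgprd cells and 241.3 ± 118.6 RPM in the pruriceptor wells (log2 difference -4.90 ± 0.87 (SE), adjusted p = 0.000174), but did not pass with edgeR and TMM on recovered reads (adjusted p = 0.614, range over the alternatives 9.4e-09 to 0.6247). Ptprn and Resp18, both of dense-core granules, did not pass there either (adjusted p = 0.498 and 0.603), although edgeR called 1.44% of the genes it tested. Calca was lower in the Mrgprd cells, at 794.99 ± 362.3 RPM beside 4136 ± 2201 RPM in the pruriceptor wells (log2 difference -2.32 ± 0.20 (SE), adjusted p = 1.35e-13), as was Etv1, a transcription factor (-3.82 ± 0.78 SE), and Osmr (-3.91 ± 0.89 SE). Among the other markers P2rx3 was higher in the Mrgprd cells (log2 difference 1.29 ± 0.33 (SE), adjusted p = 0.0291), whereas Plxnc1 (difference -0.34, adjusted p = 0.738) and Prkca (0.45, adjusted p = 0.638) did not pass.

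A further set of 29 wells lay below all 7 limits but had Tmem233 at 500 RPM or more, and 3 preparations (session A, B and C males) held 3 or more of them. Mrgprd had reads in 13 of the 29 wells, at most 98.5 RPM, and their median depth was 20790 reads. Of 8814 genes 2 passed (0.0227%), Slc44a2, a choline transporter-like protein (log2 difference 2.71 ± 0.43 (SE), adjusted p = 0.00775), and the mitochondrial ribosomal RNA mt-Rnr2 (log2 difference 1.15 ± 0.18 (SE), adjusted p = 0.00775). Both were higher in the Mrgprd cells, no gene passed with edgeR on recovered reads, and 6.44% of genes had an unadjusted p under 0.05 in limma. With the Mrgprd limit at 200 RPM the mt-Rnr2 difference was -0.62. With 3 pairs of pseudobulks the test had 2 residual degrees of freedom. None of the other markers passed, which does not show that the 2 sets are alike. P2rx3 averaged 643.95, 723.4 and 274.3 RPM in the Tmem233-high wells (difference 0.16 ± 0.27 SE), Prkca 778.4, 402.995 and 337.1 RPM (0.02 ± 0.28 SE) and Lpar3 175.02, 70.9 and 75.6 RPM (0.76 ± 0.46 SE). For Grik1 the difference was 1.04 ± 0.27 SE (adjusted p = 0.772). All 4 high markers had reads in 67.5% of the Mrgprd cells and in 18 of the 29 Tmem233-high wells (62.1%), and after thinning in 12.5% and 13.8% of them.

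**Figure D4:**
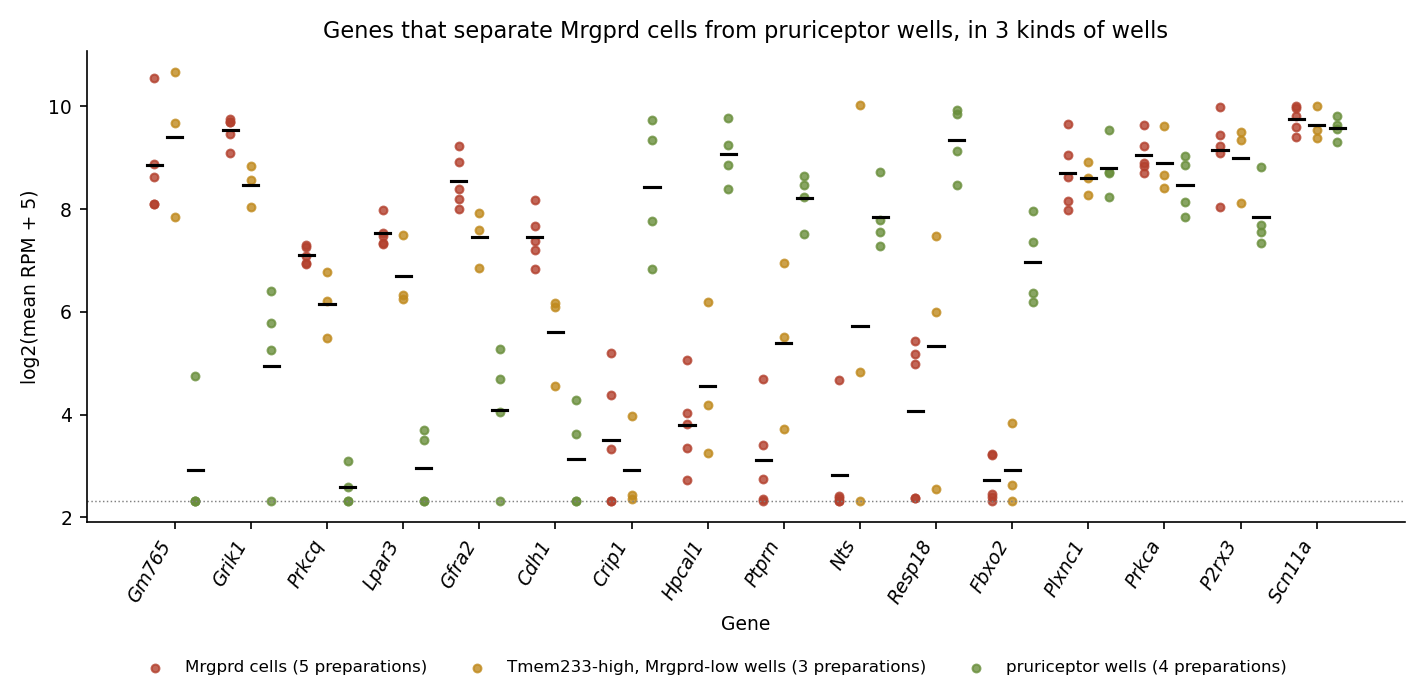
log2(mean RPM + 5) of the 12 genes that most separate the Mrgprd cells from the pruriceptor wells and of Plxnc1, Prkca, P2rx3 and Scn11a, in the Mrgprd cells (red), the Tmem233-high wells with Mrgprd below 100 RPM (ochre) and the pruriceptor wells (green). Each point is 1 preparation, the bar is the mean and the dotted line is 0 RPM; Grik1 and Gfra2 lie above the green points in red and ochre alike.

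Female against male Mrgprd cells were compared over 2 female and 3 male preparations with session as a covariate, which left 1 residual degree of freedom. Of 8923 genes 1 passed (0.0112%), the mitochondrial ribosomal RNA mt-Rnr2, which averaged 2554 and 140.1 RPM in session A and C females, against 9710.4, 2472 and 697.4 RPM in session A, B and C males (log2 difference -2.10 ± 0.45 (SE), adjusted p = 0.0305). Female values were lower within sessions A and C. It did not pass with edgeR, which called no gene, or with 20 RPM as the pseudocount, and 3.33% of genes had an unadjusted p under 0.05 in limma. The X-inactivation transcript Xist averaged 46.985 and 19.4 RPM in the 2 female preparations and 0, 0.133 and 0 RPM in the male ones (log2 difference 2.83 ± 1.12 (SE), adjusted p = 0.999). The Y-linked Eif2s3y, Uty and Kdm5d were at 0 in both female preparations, whereas Ddx3y averaged 8.22 and 7.78 RPM there and 55.9, 17.9 and 7.84 RPM in the males.

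Cooled against room-temperature Mrgprd cells gave 53 calls among 8923 genes (0.594%), 13 higher and 40 lower, with sex as a covariate and 2 residual degrees of freedom. All cooled cells were of session C, so cooling, session and depth cannot be told apart. The higher genes were led by haemoglobin. Hba-a2 averaged 436.5 and 1989.5 RPM in cooled males and females, beside 0, 0 and 4.66 RPM in session A males, session A females and session B males (log2 difference 7.13 ± 0.72 (SE), adjusted p = 3.11e-05), and Beta-s averaged 404.6 and 742.4 RPM in cooled cells and was listed at 0 in all others (adjusted p = 3.13e-05). With the Mrgprd limit at 200 RPM the differences were 2.15 for Hba-a2 (adjusted p = 0.619) and 1.81 for Beta-s (adjusted p = 0.689), and with log values averaged over cells 1.29 (adjusted p = 0.119) and 1.09 (adjusted p = 0.0923), so these genes did not pass there. Hbb-b2 (5.36 ± 0.78 SE), Sparc (4.03 ± 0.82 SE) and Smoc2 (3.80 ± 0.82 SE) were the next, and Sparc and Smoc2 encode matrix proteins. The other wells of session C carried more of it, with Hba-a2 at 4918 and 5414 RPM, and the 5 erythroid markers summed to 566.9 and 2382 RPM in the cooled Mrgprd cells, beside 5908 and 6556 RPM in the other wells of session C. The part of red-cell RNA outside the picked cells was not tested. In the Mrgprd cells the sum was 0 in 55 of 80 and at 1000 RPM or more in 3.

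Among the lower genes, Enpep, a peptidase that cleaves angiotensin II, was at 0 RPM in both cooled preparations and averaged 232.7, 78.8 and 269.7 RPM in the room-temperature ones (adjusted p = 0.000784). It was also at 3.52 and 0 RPM in the other wells of session C, against 147.1, 122.99 and 270.7 RPM in those of sessions A and B. Rprm (-4.52 ± 0.83 SE), Stx3 (-4.15 ± 0.87 SE), Fam19a2 (-3.91 ± 0.80 SE) and Pcp4 (-3.88 ± 0.67 SE) followed. No gene passed without session A females, session C males or session C females, 1.37% of genes passed without session B males, and edgeR called 10. None of Lpar3, Plxnc1, Prkca and P2rx3 passed in either the sex or the cooling comparison (lowest adjusted p = 0.509).

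**Figure D5:**
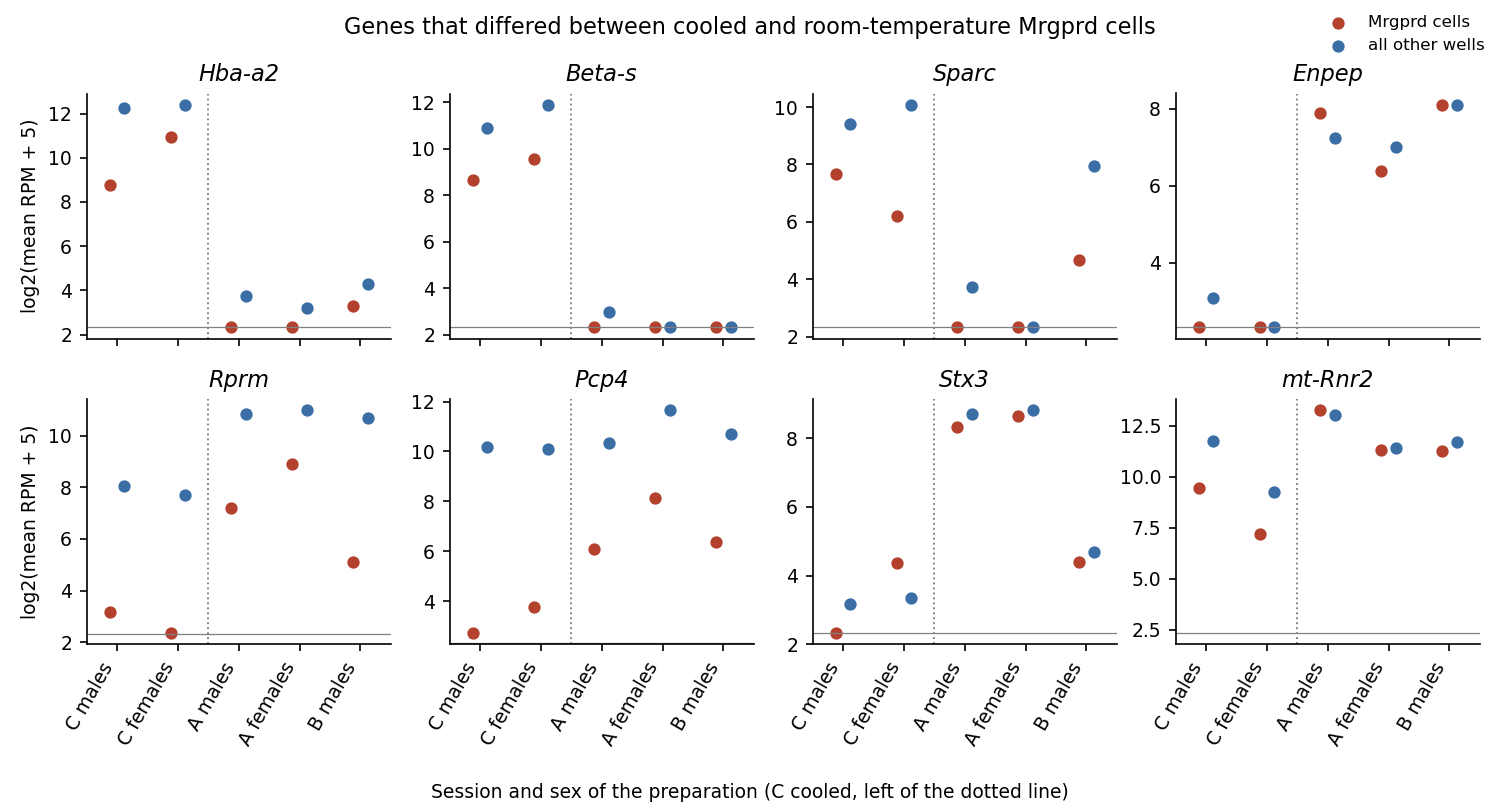
log2(mean RPM + 5) of 8 genes by preparation in Mrgprd cells (red) and all other wells (blue), with the cooled session C to the left of the dotted line and 0 RPM as the grey line. Haemoglobin is high and Enpep at or near 0 in session C in both kinds of wells.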

How the data were processed

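The authors deposited 1 table with a value in RPM, reads scaled to library size, for each gene row and well. Of 864 wells 799 held 1 cell, 694 of these had 1000 or more genes, and 80 were members and 614 not. Per the submitters' processing notes reads were mapped with Bowtie to mm9, with versions not given in the sources used here. Row copies of a gene were summed and the 1217 repeat-element rows dropped. RPM values came out as whole reads within 0.1 read for 99.6% of values in 841 wells, and in all Mrgprd cells. In 4 deposited empty or medium wells all RPM were whole numbers and were read as a score. The 33 wells with more than 1 cell and the 32 empty or medium wells entered no comparison, and no doublet caller was run.

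Cells of a preparation were averaged where there were at least 3. Genes averaging at least 5 RPM over these means were tested with limma 3.58.1 (R 4.3.3) on log2(mean RPM + 5), with the preparation as a block because both means come from the same session and sex. Variances were moderated over genes (empirical Bayes, trend and robust), with 1 to 4 residual degrees of freedom by comparison. Which plates of a session shared a cell suspension is not given in the sources used here. Fold changes on this scale understate those of low genes. The threshold was an adjusted p of 0.05 (Benjamini-Hochberg). For each list the text gives the counts, the median, and up to 6 members by size of difference or level. The 10 highest and 10 lowest genes were taken among those with one direction in every preparation and 20 RPM or more in the higher group, 6 and 6 for the gated wells, 5 and 5 for sex and cooling. A few genes these rules select are not reported here. The Mrgprd cells and the lists were chosen with earlier results of these data known. Alternatives were pseudocounts of 1 and 20 RPM, filters of 0 and 20 RPM, scaling to the median gene, each preparation left out, no block, other units, other Mrgprd limits, thinning to 3000 reads (seed 1), edgeR 4.0.16 on recovered reads with TMM or DESeq2 1.42.0 size factors, and the mean of log values. A further one replaced the other wells by the unweighted mean over the Th, Pvalb, Tac1 and pruriceptor wells, that is with these gated kinds weighted equally. The main fits, and not the alternatives, were run on simulated data.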

Additional observations from a re-analysis of the deposited data

Results flagged for a closer look

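Of 44 sets of 5 preparations examined, 5 had 1 preparation far from the others by Dixon's ratio, where chance gives about 1 in 20. Lpar3 in the Mrgprd cells reached 247.1 RPM in session C females, above the other 4 preparations. Gm765 reached 1499 RPM in session B males. Pde10a reached 164.6 RPM, Pcp4 275.2 RPM and Tagln3 208.5 RPM in session A females, the preparation with the fewest Mrgprd cells, 10.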

How the results depend on the processing

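All 21 genes followed in the comparison with all other wells kept their direction in each of 21 alternatives, and 15 values lost their call. The share of tested genes called there, 10.3%, became 1.80% with no filter on low values, 16.9% with plate and sex as the unit, 5.98% with sessions B and C alone, and 16.4% (812 genes shared) with the mean over cells of log values, which was chosen after seeing the data. Leaving out 1 preparation gave 6.41 to 8.80%, and no replicate block gave 6.94%. With the gated kinds of other wells weighted equally 8.90% were called, and Tmem233, Prkca and Pcp4 did not pass.

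Against pruriceptor wells the 1.02% called became 0.00684% with no filter, 0.419% without the replicate block, 1.68% with the picking session as the unit, 0.425% with thinned cells, 1.88% with the mean of log values, and 0.599 to 1.22% with 1 preparation left out.

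Against Tmem233-high wells the 0.0227% called became 0 with a pseudocount of 20 RPM, no filter, scaling, no replicate block, edgeR with TMM or with DESeq2 size factors, the Mrgprd limit at 200 RPM or thinning. It became 0.0113% with plate and sex as the unit or the mean of log values, 0.0474% with sessions B and C alone, and 0.0114 to 0.160% with 1 preparation left out, and mt-Rnr2 turned to -0.62 with the limit at 200 RPM.

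The 0.0112% called by sex became 0.0336% with a pseudocount of 1 RPM and 0 with 20 RPM, no filter, either edgeR fit, the limit at 50 RPM, thinning or the mean of log values. Without any one preparation of session A or C no residual degrees of freedom were left, so these fits were not run. The 0.594% called by cooling became 0.336% with a pseudocount of 20 RPM, 0 with no filter, 0.549% with a filter at 20 RPM, 0.0985% with edgeR and either scaling, and 0 to 1.37% with 1 preparation left out. The comparison by sex had session as a block. No paired analysis was possible for cooling because all cooled cells are of session C. The mean share of Mrgprd cells, 13.6%, became 7.58% with the limit at 200 RPM. The cause of these changes was not tested.

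Among lists, the median minus that of all genes changed sign in 14 of 21 alternatives for transcription factors, 10 for purinergic genes, 10 for calcium channels and 6 for itch and cytokine receptors. In session A few reads per gene limit what a single cell can show.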

Other observations

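Several genes outside the lists, chosen after their values were seen, were higher in the Mrgprd cells than in all other wells (limma, adjusted over 9982 genes). Cd44, a hyaluronan receptor, averaged 532.8, 549.04, 473.97, 368.6 and 675.9 RPM in the Mrgprd cells and 85.7, 114.4, 68.5, 77.6 and 81.5 RPM in the other wells (log2 difference 2.53 ± 0.21 (SE), adjusted p = 1.12e-06). Rspo2, a secreted Wnt enhancer, averaged 167.01 ± 40.4 RPM in the Mrgprd cells and 32.6 ± 14.5 RPM in the other wells (SD, n = 5 each; log2 difference 2.24 ± 0.29 (SE), adjusted p = 6.49e-05). Both were higher in 5 of 5 preparations without overlap.

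Of 2 secreted proteases of the kallikrein family, Klk5 was low but higher at 24.1 ± 9.23 RPM in the Mrgprd cells and 0.943 ± 0.895 RPM in the other wells (log2 difference 2.25 ± 0.42 (SE), adjusted p = 0.00199), and Klk8 was higher with a difference of 2.10 ± 0.45 SE (adjusted p = 0.00528). The G protein subunits Gnb4 (2.23 ± 0.26 SE) and Gng2 (2.02 ± 0.18 SE), the diacylglycerol kinase Dgki (2.70 ± 0.41 SE) and the regulators of protein kinase A Prkar2b (2.58 ± 0.33 SE) and Pkig (2.53 ± 0.33 SE) were higher too. Adk, adenosine kinase, averaged 742.4 ± 192.2 RPM in the Mrgprd cells and 179.1 ± 49.9 RPM in the other wells (log2 difference 2.02 ± 0.21 (SE), adjusted p = 6.88e-06), beside Nt5e of the same pathway. Each of these 8 genes was higher in 5 of 5 preparations.

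The ribosomal RNA mt-Rnr2 varied more between preparations than between kinds of cells. It averaged 9710.4, 2554, 2472, 697.4 and 140.1 RPM in the Mrgprd cells and 8175, 2698, 3291, 3477 and 601.5 RPM in the other wells, in the order of preparations used above, and it was lower in cooled than in room-temperature Mrgprd cells (log2 difference -3.38 ± 0.50 (SE), adjusted p = 0.00185). Its part in the comparisons by sex and with the Tmem233-high wells, where it passed, was not tested.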
